A study of Sus scrofa with 6 samples.

Results

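The cytosolic and mitochondrial heat shock genes of the pig jejunum were examined in weaned piglets with and without transport. The members were taken by gene name alone: HSPA, HSPB, HSPD, HSPE, HSPH and HSP90 genes, DNAJA, DNAJB and DNAJC genes, CCT, BAG and HSF genes, and TCP1 and STIP1. HSPA5, HSP90B1, DNAJB9, DNAJB11, DNAJC3 and DNAJC10, which serve the endoplasmic reticulum, were left out. The rule found 78 of the 24358 genes of the table, and 66 of them passed the filter, an FPKM of 1 or more in 3 or more libraries. FPKM is the level of a gene per length of transcript and per depth of library. Not every member belongs to the cytosol or mitochondrion. As examples, DNAJB12, DNAJB14 and DNAJC1 are known as proteins of the endoplasmic reticulum membrane, HSPA13 is found with microsomes and HSPB11 is an intraflagellar transport protein. The place of each other member was not checked, so some of these may also serve the endoplasmic reticulum.

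The jejunum, which follows the duodenum, was sampled from weaned Large White by Landrace piglets, with 3 samples after transport (transports 1 to 3) and 3 without transport (controls 1 to 3). All 6 samples are described as healthy. How long the journey lasted and how soon after it tissue was taken is not stated in the labels. Nor is it stated that each sample was a different animal, so the p-values speak only for the variation among these samples and not necessarily among animals.

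Heat shock proteins are chaperones that bind unfolded chains and keep them from clumping. HSP70 proteins do this in cycles driven by ATP, with HSP40 (DNAJ) proteins delivering the clients and BAG and HSP110 proteins releasing the nucleotide, while the barrel-shaped chaperonins enclose a client to fold it. In heat or protein damage the transcription factor HSF1 is released from chaperones and switches on the inducible members, and in the gut inducible HSP70 and HSPB1 are known from the epithelium, where they help cells withstand injury. Most of the other members are housekeeping genes.

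Total counts ranged from 49489495 to 53739246 after transport and from 48208451 to 50888962 in controls. Epithelial markers were present in all 6 libraries. Summed over 8 genes they were lowest in transport 3, at 773 FPKM, against 1522 to 2327 in the other 5 libraries. Of these genes only CDH1 was lower in every transport library, at 41.8 to 63.7 FPKM against 80.9 to 135 FPKM in controls. Transport 3 also went against its label in part. FABP6, an ileal bile acid binding protein, had 3.0, 8.06 and 6836 FPKM in transports 1 to 3. In controls 1 to 3 it had 2.83, 5.23 and 13.8 FPKM. Of the 6 ileal markers listed, SLC10A2 and CUBN were likewise far highest in transport 3. GUCA2A and SLC51A were only slightly highest there, and SLC51B was lowest there, at 52.3 FPKM. Summed over 6 B cell markers, transport 3 had 677 FPKM, against 7.35 to 13.2 in the other 5 libraries. Control 2 held little muscle: 10 smooth muscle markers summed to 2532, 1113 and 1054 FPKM in transports 1 to 3 and to 2159, 74.7 and 2919 FPKM in controls 1 to 3. Other marker sets differed between the groups: HBB, of red blood cells, was higher in every transport library, at 45.3 to 123 FPKM against 11.6 to 35.1 FPKM in controls. Of 6 enterocyte markers 2 were lower and 1 was higher in every transport library. FABP2 was lower in each, at 48.2 to 123 FPKM against 329 to 834 FPKM in controls, and APOA4 was placed likewise. ANPEP was higher in each, at 634 to 1510 FPKM against 418 to 619 FPKM in controls. For many values that transport 3 or control 2 moves strongly, the value without that library is given. Values printed without such a figure may rest on these libraries too.

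No heat shock gene was called as different after transport. In edgeR's quasi-likelihood test with Benjamini-Hochberg adjustment over the 12012 genes tested, 0 of 66 members passed an adjusted p of 0.05, and their adjusted p-values ran from 0.890 to 0.998. Over all genes 0.0167% were called, so few calls could fall among the members. DESeq2, which called 0.42% of the genes it adjusted, limma, and the fit with the replicate number as a block called 0 members as well. At an unadjusted p under 0.05 there was 1 member, HSF4, which was higher, or 1.52% of the members. Of all genes tested 5.13% were under that threshold, 3.52% higher and 1.61% lower. With the replicate block there were 2 members, HSF4 and DNAJC18. Overlap was judged on FPKM. The groups did not overlap for 5 members, or 7.58%, against 11.1% of all genes: DNAJA2, DNAJC16, DNAJC28 and HSF4 were higher in every transport library and DNAJC25 was lower in each. On log2 CPM with TMM scaling, the scaling used in the test, DNAJA2 and DNAJC16 did overlap. As deviations from the gene's mean, control 1 was there at 0.065 and 0.17, and transport 3 at 0.031 and 0.025.

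With all 6 libraries the log2 fold changes of the members centred near 0. Their median was -0.0082, against 0.07 over all genes tested, with 32 positive and 34 negative values, and the median size without sign was 0.21, against 0.31. For 26 of the 66 members, or 39.4%, the 95% interval of the log2 fold change lay within a 2-fold change in either direction, against 28.5% of all genes. For the remaining 40 the interval reached a 2-fold change, and for all of these but HSF4 it also held 0. Without transport 3 the median of the members was -0.18, against 0.0046 over all genes tested.

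**Figure D1:**
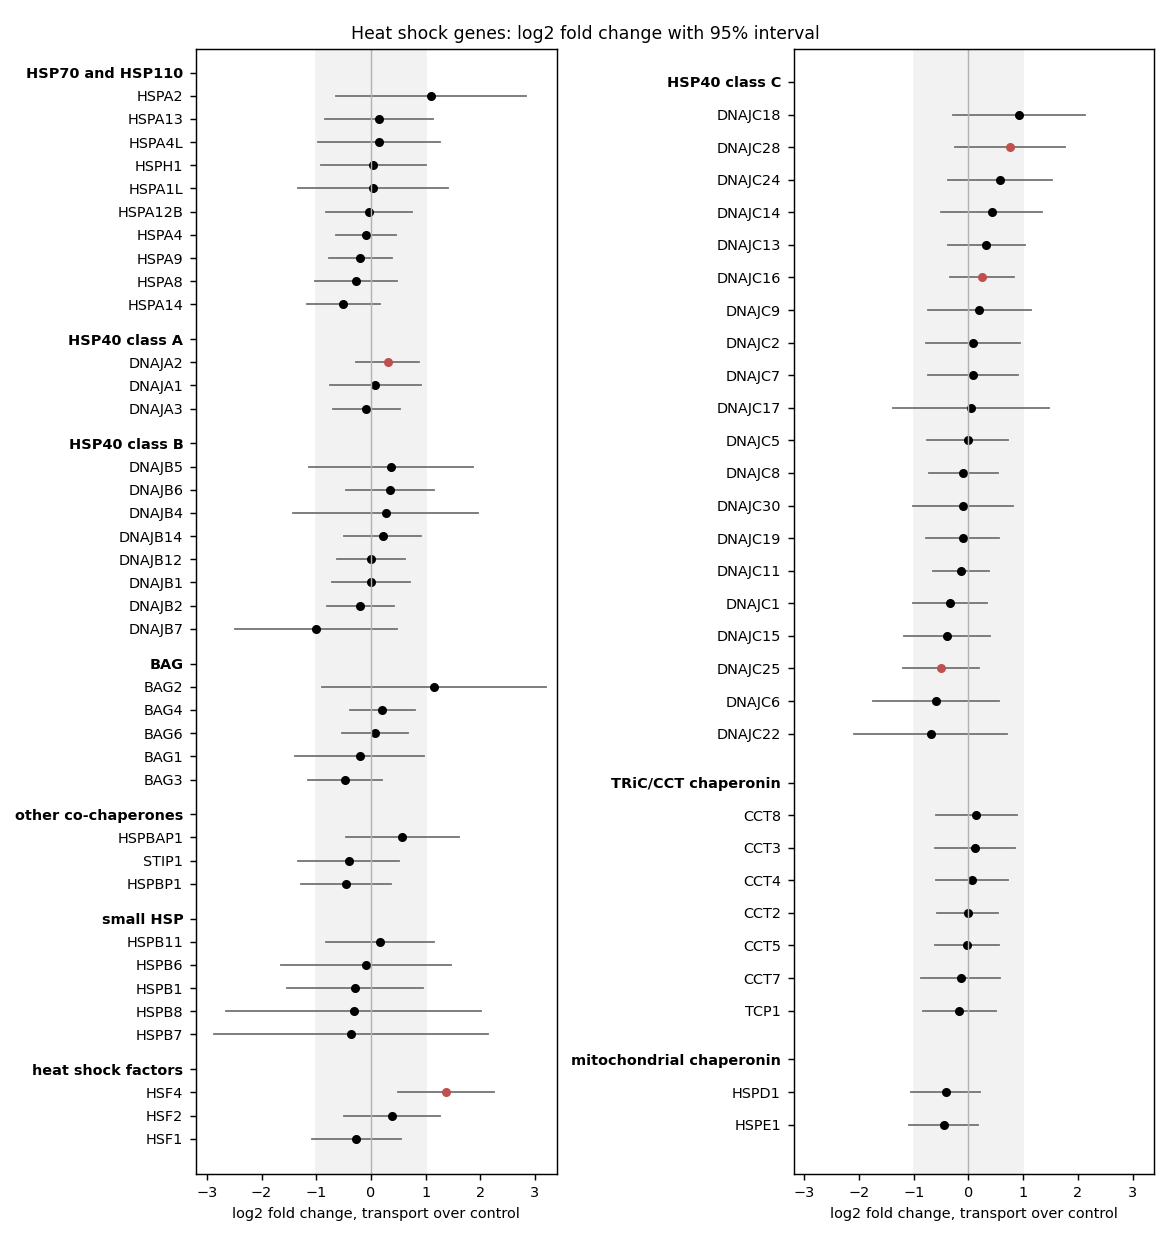
Log2 fold change of transport over control (x axis, points) with its 95% interval (lines) for the 66 tested heat shock genes, grouped by role; the grey band marks a 2-fold change either way and red points mark genes whose groups did not overlap in FPKM. The interval of HSF4, from 0.49 to 2.25, is the only one that leaves out 0, and the intervals of HSPB7 and HSPB8 are among the widest.

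The heat shock factors, which switch on the chaperone genes, were not alike. HSF4, best known from the lens, lies on the plus strand of chromosome 6 at 27809465 to 27813401 and no other gene of the table overlaps it. HSF4 had 10.2, 7.34 and 18.3 FPKM in transports 1 to 3, against 4.22, 3.75 and 4.98 FPKM in controls 1 to 3. Every transport library was above every control, and transport 3 was the highest. The log2 fold change of 1.37 ± 0.37 (edgeR estimate ± SE) had p = 0.00775 unadjusted and 0.890 adjusted, and the exact permutation test of 3 against 3 samples cannot go below 0.1. Without transport 3 the log2 fold change was 0.99. Over the 14 alternatives it ran from 0.95 to 1.58 and its adjusted p from 0.0785 with DESeq2 to 1.0, so it passed the adjusted threshold in none. T cell markers were higher after transport as well: 5 of 6 were higher in every transport library, against 6.93% of all genes tested, and they summed to 34.9, 50.6 and 59.3 FPKM in transports 1 to 3 and to 24.1, 22.4 and 16.8 FPKM in controls 1 to 3. The part of these cells, and of the red blood cell and enterocyte markers that differed, in the level of HSF4 was not tested. A further gene, ENSSSCG00000040125, is named HSF4 by a gene name reference and begins 3467 bases beyond the end of this HSF4 on the same strand. It had 2.35, 1.67 and 1.43 FPKM after transport and 1.74, 0.380 and 2.18 FPKM in controls, with overlap. It was singled out after its values were seen.

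HSF1, the main heat shock activator, had 8.26, 13.0 and 9.33 FPKM after transport, against 8.0, 14.4 and 13.3 FPKM in controls. The span of HSF1 overlaps 5 other genes, among them MROH1 and SCX on the same strand, so its reads cannot be assigned with certainty. Of the 66 tested members, 30 overlap another gene in span. HSF2, which pairs with HSF1 and acts in development, had 4.83, 3.41 and 7.66 FPKM after transport, against 4.53, 2.69 and 4.18 FPKM in controls. Both overlapped between the groups, and their log2 fold changes of -0.27 ± 0.34 and 0.39 ± 0.37 (edgeR estimate ± SE) were about the size of their errors. Without transport 3 that of HSF2 was 0.088, and without control 2 that of HSF1 was -0.068. HSF5 reached at most 0.333 FPKM and was not tested.

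**Figure D2:**
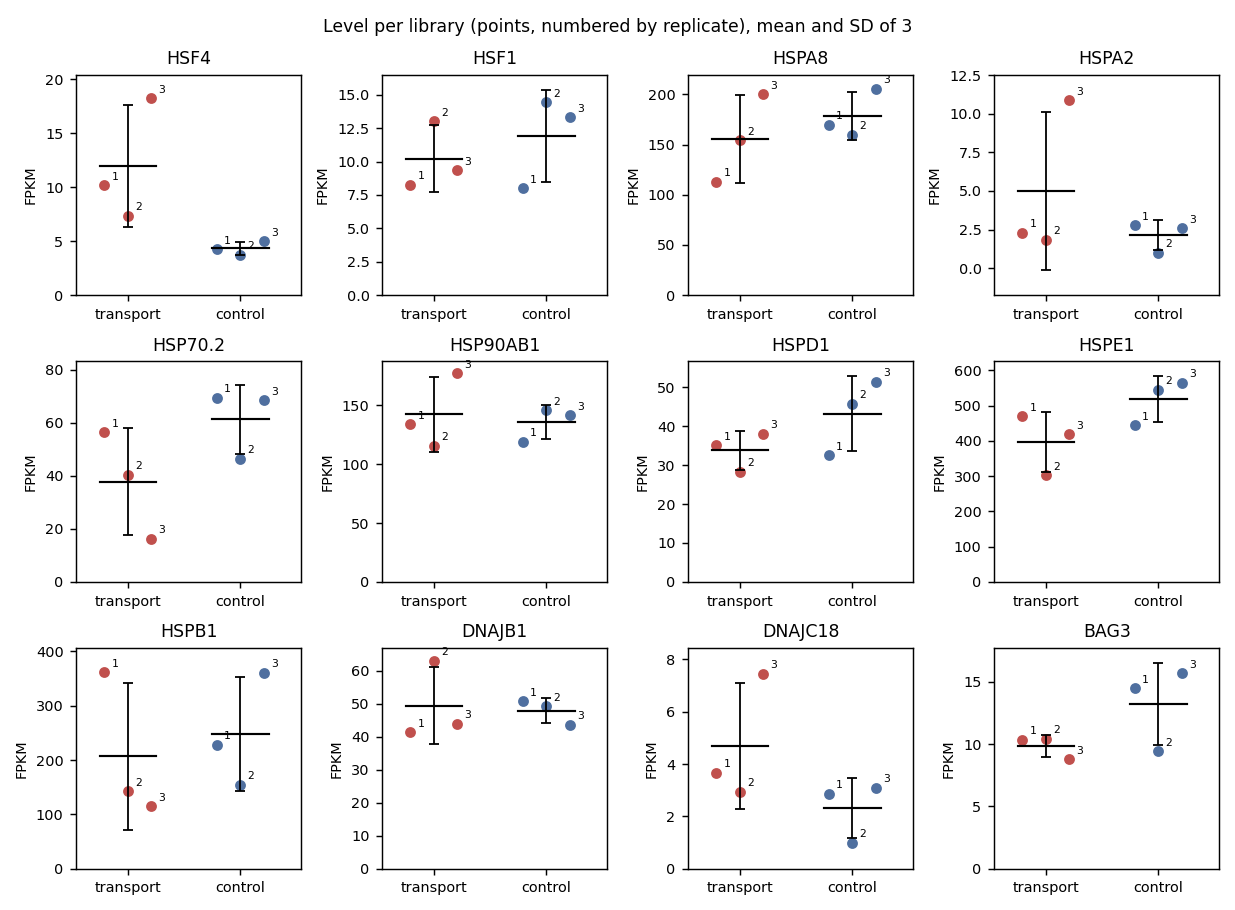
FPKM (y axis) of 12 heat shock genes in the 3 transport and 3 control libraries; points are libraries, numbered by replicate, and the line and bar are the mean and SD of 3. HSF4 is the one panel in which all transport points sit above all control points, and HSPA2 and DNAJC18 are high in transport 3.

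Among the HSP70 proteins and their HSP110 relatives, 10 of 11 members were tested, 5 with positive and 5 with negative fold changes, and 0 were without overlap. The median log2 fold change was 0.00024, and -0.25 without transport 3. HSPA8, the constitutive cytosolic HSP70 and the most abundant of this group, had 113, 154 and 200.2 FPKM after transport, against 169.7, 160 and 206 FPKM in controls. The controls lay within the range spanned by transport except for control 3, which was the highest. Its log2 fold change of -0.27 had an interval from -1.02 to 0.49, and 3 short RNA genes of the family RF00016 overlap it.

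HSPA4 and HSPH1, which recharge HSP70 with nucleotide, had log2 fold changes of -0.09 ± 0.23 and 0.04 ± 0.41 (edgeR estimate ± SE). HSPA4 had 13.0, 12.6 and 16.5 FPKM after transport and 12.4, 15.02 and 15.3 FPKM in controls. HSPH1, one of the inducible members, had 20.9, 12.5 and 43.8 FPKM after transport and 22.9, 20.4 and 26.0 FPKM in controls, so transports 2 and 3 were the lowest and the highest of the 6. Without transport 3 its log2 fold change was -0.51.

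HSPA14, an HSP70 relative that sits on the ribosome, was the member of this group with the smallest p. It had 11.8, 10.8 and 13.4 FPKM after transport, against 11.2, 17.7 and 20.2 FPKM in controls. Only control 1 lay among the transport values, and the log2 fold change was -0.51 ± 0.28 (edgeR estimate ± SE). HSPA2, an HSP70 best known from the testis, had 2.29, 1.84 and 10.9 FPKM after transport and 2.79, 1.01 and 2.58 FPKM in controls. Its high mean came from transport 3: the log2 fold change was 1.11 with all libraries and -0.05 without that library. HSPA4L, HSPA12B and HSPA13 stayed under 4 FPKM in every library and had log2 fold changes between -0.03 and 0.15. Without transport 3 these were -0.56, 0.063 and -0.25.

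The stress-inducible HSP70 has no symbol in the table's name column. ENSSSCG00000029160, named HSP70.2 by the gene name reference, spans 23915072 to 23929754 on the plus strand of chromosome 7, beginning 554 bases from the member HSPA1L, which lies on the minus strand. It was added after its values were seen. HSP70.2 had 56.5, 40.5 and 16.3 FPKM after transport, against 69.5, 46.5 and 68.5 FPKM in controls. Transport 3 was the lowest library and the groups overlapped, since control 2 was below transport 1 (log2 fold change -0.73, interval from -1.89 to 0.43, and -0.37 without transport 3). HSPA1L had 2.01, 3.05 and 0.758 FPKM after transport and 2.24, 1.75 and 1.61 FPKM in controls. HSP70 genes are related in sequence, and how reads that match more than 1 of them were counted is not given. The cytosolic HSP90 gene HSP90AB1, ENSSSCG00000001701, is likewise named only by its description. HSP90AB1 had 134, 116 and 177 FPKM after transport and 119, 146 and 142 FPKM in controls, with a log2 fold change of -0.0087 and an interval from -0.68 to 0.67. No gene analysed here carried the name HSP90AA1, HSPA1A, HSPA1B or HSPA6. Whether HSP70.2 stands for HSPA1A, HSPA1B or both was not checked.

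The HSP40 proteins of classes A and B carry clients to HSP70. Of 14 such members 11 were tested, and the median log2 fold changes were 0.08 for class A and 0.11 for class B. DNAJA2 had 20.7, 24.5 and 22.8 FPKM after transport, against 19.8, 15.3 and 17.9 FPKM in controls. The transport libraries were all above the controls in FPKM, but the gap between transport 1 and control 1 was small. On log2 CPM with TMM scaling control 1 lay above transports 1 and 3. The log2 fold change was 0.30 ± 0.24 (edgeR estimate ± SE). DNAJB1, an inducible HSP40 and a standard readout of HSF1 activity, had 41.4, 63.0 and 43.98 FPKM after transport and 50.8, 49.2 and 43.6 FPKM in controls. Its log2 fold change was -0.0061 with an interval from -0.72 to 0.71. DNAJA1, likewise inducible, had 31.2, 32.6 and 58.3 FPKM after transport and 38.0, 23.0 and 48.8 FPKM in controls, with overlap (log2 fold change 0.08 ± 0.35, SE). DNAJB7 had the lowest fold change of all members, at 2.13, 0.680 and 0.660 FPKM after transport and 2.32, 2.96 and 1.34 FPKM in controls (log2 fold change -1.0). It lies inside the span of XPNPEP3 on the opposite strand, and the use of strand in counting is not given, so its reads cannot be assigned with certainty.

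Class C HSP40 proteins share only the J domain and work at many places, among them clathrin coats, ribosomes, spliceosomes and the mitochondrial import motor. Of 23 members 20 were tested, 10 with positive and 10 with negative values, and their median log2 fold change was 0.016. DNAJC25 had 7.09, 6.89 and 6.43 FPKM after transport, against 7.79, 9.15 and 11.04 FPKM in controls. It was the only tested member that was lower in every transport library (log2 fold change -0.51 ± 0.29, edgeR estimate ± SE), and 4.19% of all genes tested were placed so. DNAJC28, a mitochondrial member, had 2.08, 2.98 and 2.32 FPKM after transport, against 0.956, 1.80 and 1.41 FPKM in controls, without overlap (0.76 ± 0.43). DNAJC16 had 5.94, 5.95 and 6.11 FPKM after transport, against 5.73, 4.28 and 4.45 FPKM in controls, also without overlap in FPKM (0.25 ± 0.25). On log2 CPM with TMM scaling it did overlap. Of all genes tested, 6.93% were higher in every transport library, against 4 of 66 members.

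DNAJC18 had the next smallest p after HSF4. It had 3.68, 2.94 and 7.46 FPKM after transport and 2.87, 0.996 and 3.09 FPKM in controls. Transport 3 was the highest library and control 2 the lowest, and control 3 lay above transport 2. Its log2 fold change was 0.93 ± 0.51 (edgeR estimate ± SE), and with the replicate block it came just under the unadjusted threshold, at 0.0498. Without transport 3 the log2 fold change was 0.51, and without control 2 it was 0.58.

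Several class C members stood out in transport 3 in one direction or the other. DNAJC24, which acts in diphthamide synthesis, had 2.82, 2.85 and 6.33 FPKM after transport and 2.27, 2.0 and 3.31 FPKM in controls. DNAJC7, a co-chaperone that also holds HSP90, had 24.6, 27.7 and 57.0 FPKM after transport and 24.8, 33.0 and 39.4 FPKM in controls. DNAJC22 ran the other way, at 23.6, 31.2 and 6.24 FPKM after transport and 30.9, 37.5 and 29.3 FPKM in controls, and was singled out after its values were seen, as was DNAJC16. DNAJC6, the auxilin that uncoats clathrin vesicles, was lowest in transport 3 too, at 4.73, 3.30 and 1.36 FPKM after transport and 4.01, 5.17 and 4.68 FPKM in controls. Without that library the log2 fold changes of DNAJC24, DNAJC7, DNAJC22 and DNAJC6 were 0.16, -0.33, -0.28 and -0.24, against 0.58, 0.08, -0.69 and -0.60 with it.

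BAG proteins and other co-chaperones adjust the HSP70 cycle. All 5 BAG genes were tested, 0 were without overlap, and their median log2 fold change was 0.08. BAG3, an inducible member that sends clients to autophagy, had 10.3, 10.4 and 8.81 FPKM after transport, against 14.5, 9.44 and 15.7 FPKM in controls. Control 2 lay among the transport values and the other controls above them (log2 fold change -0.47 ± 0.29, edgeR estimate ± SE). BAG1, the most abundant, had 53.6, 97.98 and 28.3 FPKM after transport and 61.6, 77.3 and 66.1 FPKM in controls, so the transport libraries were spread on either side of the controls. BAG2 had 2.499, 1.09 and 10.2 FPKM after transport and 2.20, 0.577 and 2.89 FPKM in controls. Its log2 fold change of 1.16 ± 0.87 (edgeR estimate ± SE) was -0.08 without transport 3.

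STIP1, which bridges HSP70 and HSP90, had 23.6, 20.8 and 51.2 FPKM after transport and 26.9, 39.4 and 52.8 FPKM in controls. Transports 1 and 2 were below every control and transport 3 was near the highest. The log2 fold change was -0.41 ± 0.39 (edgeR estimate ± SE). Without transport 3 it was -0.86, under the unadjusted threshold at 0.0330 and not past the adjusted one. HSPBP1, a nucleotide exchange factor of HSP70, had 12.3, 6.01 and 9.18 FPKM after transport and 10.6, 9.12 and 16.5 FPKM in controls. HSPBAP1 had 2.32, 1.90 and 3.31 FPKM after transport and 2.15, 0.749 and 1.89 FPKM in controls. Both overlapped between groups, with log2 fold changes of -0.46 ± 0.35 and 0.58 ± 0.44 (edgeR estimate ± SE).

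TRiC, the cytosolic chaperonin that folds actin and tubulin, had small log2 fold changes with all 6 libraries, and all were negative without transport 3. It is built from TCP1 and 7 further subunits, of which CCT6A is named in the table only by its description and was added to the 7 tested members. All 8 had intervals that lay within a 2-fold change either way, as did the 3 tested class A HSP40 genes. The intervals of the 8 reached down to -0.89 for CCT6A and up to 0.89 for CCT8. The log2 fold changes of the 8 subunits ran from -0.17 for CCT6A to 0.14 for CCT8. Without transport 3 they ran from -0.49 for CCT6A to -0.15 for CCT2, with CCT8 at -0.21. CCT3, the most abundant on average, had 63.1, 65.2 and 122 FPKM after transport and 59.4, 71.6 and 87.5 FPKM in controls. TCP1, the least abundant in several libraries, had 22.1, 15.9 and 33.4 FPKM after transport and 25.4, 23.2 and 26.6 FPKM in controls. Within a library the highest subunit exceeded the lowest 3.01 to 4.10 times after transport and 3.08 to 3.29 times in controls on the FPKM scale.

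The subunits were high in the same libraries, 1 of each group. Their median FPKM was 37.9, 34.5 and 59.8 in transports 1 to 3 and 39.1, 41.9 and 52.2 in controls 1 to 3. Of the 8 subunits, 7 were highest in transport 3 and 1 in control 3, and the median log2 fold change of the 7 members was -0.20 without transport 3, against -0.01 with it. Markers of dividing cells had the same 2 libraries on top, with 49.0, 29.9 and 220 FPKM summed over 4 genes in transports 1 to 3 and 31.0, 59.2 and 86.0 in controls 1 to 3. None of the 4 was without overlap, and their part in the TRiC levels was not tested. CCT6B, a relative known from the testis, and CCT8L2 stayed at or below 0.298 FPKM.

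**Figure D3:**
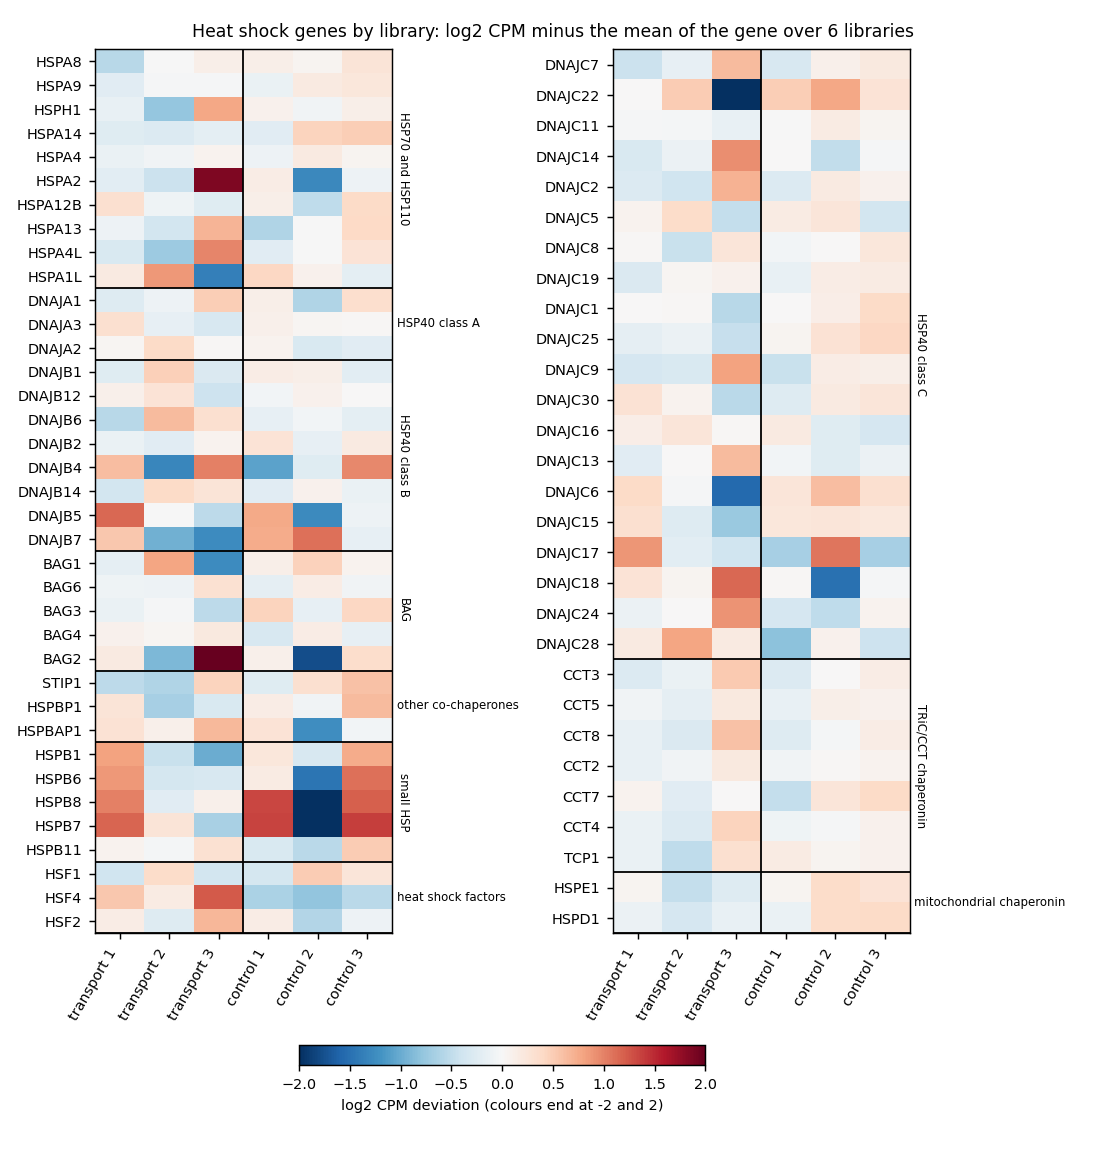
Log2 CPM of each of the 66 tested heat shock genes in each library minus the gene's mean over the 6 libraries (colour, red higher and blue lower), ordered by role and, within a role, by mean FPKM. Transport 3 stands out in both directions, HSPB7 and HSPB8 are lowest in control 2, and the TRiC rows are pale.

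In the mitochondrion, imported chains meet the HSP70 protein HSPA9 and then the chaperonin made of HSPD1 (HSP60) and its lid HSPE1 (HSP10). HSPD1 and HSPE1 are neighbours on chromosome 15, on opposite strands with 97 bases between them, HSPD1 at 101321360 to 101373878 and HSPE1 at 101373976 to 101376144. HSPE1, the most abundant member of all with 22.8% of the summed FPKM, had 469, 303 and 419 FPKM after transport, against 445, 545 and 565 FPKM in controls. HSPD1 had 35.2, 28.3 and 38.1 FPKM after transport, against 32.5, 45.8 and 51.4 FPKM in controls. In both, controls 2 and 3 were above every transport library and control 1 was among them. The log2 fold changes were -0.46 ± 0.27 for HSPE1 and -0.42 ± 0.27 for HSPD1 (edgeR estimate ± SE), and each stayed negative in all 14 alternatives.

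The 2 genes kept close to the same ratio in every library, but its size depends on the scale. By FPKM HSPE1 exceeded HSPD1 13.3, 10.7 and 10.996 times in transports 1 to 3 and 13.7, 11.9 and 10.991 times in controls 1 to 3. By count the ratio was 1.16, 0.933 and 0.959 after transport and 1.19, 1.04 and 0.958 in controls. The length implied by count and FPKM was 7582 bases for HSPD1 and 661 bases for HSPE1, and the span of HSPD1 overlaps SF3B1 and COQ10B, so the level of HSPD1 per length is uncertain. HSPA9 had 59.9, 64.6 and 77.0 FPKM after transport and 60.6, 74.4 and 85.1 FPKM in controls, with overlap (log2 fold change -0.19 ± 0.25, edgeR estimate ± SE). Counting also DNAJA3, DNAJC11, DNAJC15, DNAJC19, DNAJC28 and DNAJC30, known as mitochondrial, 8 of 9 such members had negative fold changes with a median of -0.14, where 51.5% of all tested members and 43.1% of all genes tested were negative. DNAJC28 was the exception and the 1 of the 9 without overlap. These 9 were not among the role groups set for the members. Without transport 3 the log2 fold changes of DNAJA3 and DNAJC30 were positive too, at 0.014 and 0.076.

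Small heat shock proteins hold unfolded chains without ATP, and HSPB6, HSPB7 and HSPB8 are known for their high levels in muscle. They varied more between libraries than any other role group: the median SD of log2 CPM within a group was 1.04 for the 5 tested members, against 0.39 over the 66 members and 0.49 over all genes tested. HSPB8 had 8.26, 3.27 and 4.85 FPKM after transport and 9.71, 0.347 and 9.70 FPKM in controls. HSPB7 had 5.72, 2.84 and 1.79 FPKM after transport and 6.13, 0.190 and 6.89 FPKM in controls. HSPB6 had 43.6, 17.6 and 21.4 FPKM after transport and 25.1, 8.06 and 53.5 FPKM in controls. For all 3 genes control 2 was the lowest of the 6 libraries, and it was also the lowest in summed smooth muscle markers. HSPB11, not known for muscle here, was lowest in control 2 as well, at 1.82 FPKM. None of the 10 smooth muscle markers was without overlap between the groups, and their part in the levels of the small heat shock genes was not tested. In a bulk sample fewer muscle cells and less RNA per cell cannot be told apart.

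Without control 2 the transport libraries were all below the remaining controls for HSPB7 and HSPB8. The log2 fold changes were then -0.93 for HSPB7, -0.87 for HSPB8 and -0.53 for HSPB6, against -0.37, -0.32 and -0.09 with all libraries. HSPB1, also found in epithelium, was not lowest in that library. HSPB1 had 362, 143 and 116 FPKM after transport and 228, 155 and 361 FPKM in controls, so that transport 1 and control 3 shared the highest level. Its log2 fold change was -0.29 ± 0.52 (edgeR estimate ± SE). HSPB3 and HSPB9 were at or below 0.0513 FPKM.

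**Figure D4:**
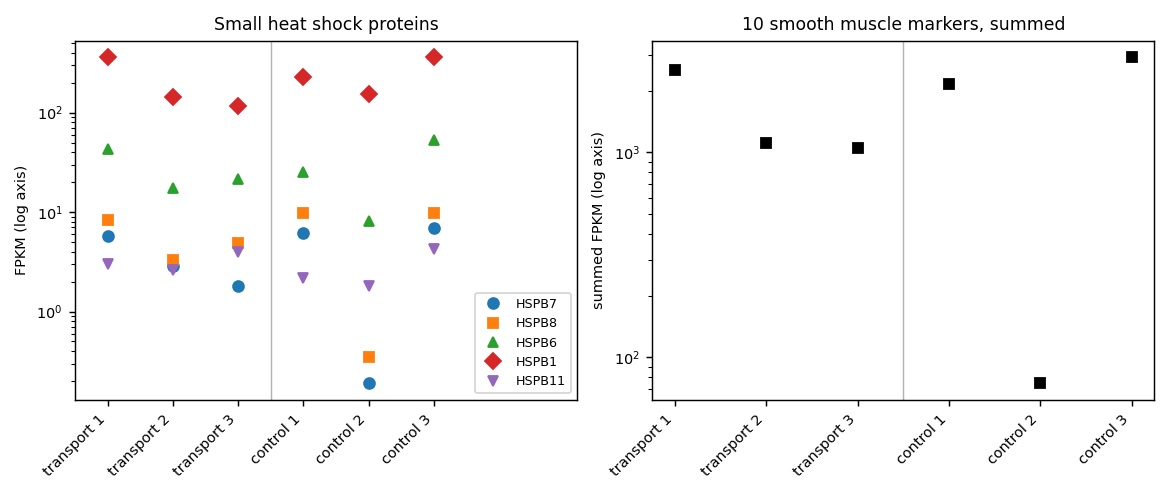
Left, FPKM (log axis) of the 5 tested small heat shock genes in each library; right, summed FPKM (log axis) of 10 smooth muscle markers in the same libraries. HSPB7 and HSPB8 drop to 0.190 and 0.347 FPKM in control 2, where the marker sum is 74.7, against 1054 to 2919 in the other 5 libraries.

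Of the 6 endoplasmic reticulum chaperones that the rule left out, 5 had negative log2 fold changes and DNAJC10 had 0.10, with a median of -1.06. In edgeR 3 of them were lower with an unadjusted p under 0.05, against 1.61% of all genes tested, and 4 were lower in every transport library, against 4.19%. None passed the adjusted threshold in edgeR, while in DESeq2 DNAJB11 passed it with an adjusted p of 0.0446. Without transport 3 the log2 fold change of DNAJC10 was -0.41. DNAJB11 had 22.5, 17.6 and 17.6 FPKM after transport, against 30.3, 50.5 and 55.6 FPKM in controls. HSPA5, the HSP70 protein of that compartment, had 133, 117 and 181 FPKM after transport, against 213, 402 and 428 FPKM in controls. HSP90B1, its HSP90, had 299, 241 and 152 FPKM after transport, against 324, 603 and 667 FPKM in controls. Their cytosolic counterparts HSPA8 and HSP90AB1 had log2 fold changes of -0.27 and -0.0087, beside -1.35 for HSPA5 and -1.24 for HSP90B1. Goblet cell markers, summed over 4 genes, had 182, 101 and 49.3 FPKM in transports 1 to 3. In controls 1 to 3 they had 92.4, 304 and 330 FPKM. Plasma cell markers, also summed over 4 genes, had 157, 135 and 68.0 FPKM in transports 1 to 3. In controls 1 to 3 these had 34.6, 120 and 305 FPKM. The part of either marker set in the chaperone levels was not tested. Nor was the difference between the endoplasmic reticulum chaperones and the members.

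**Figure D5:**
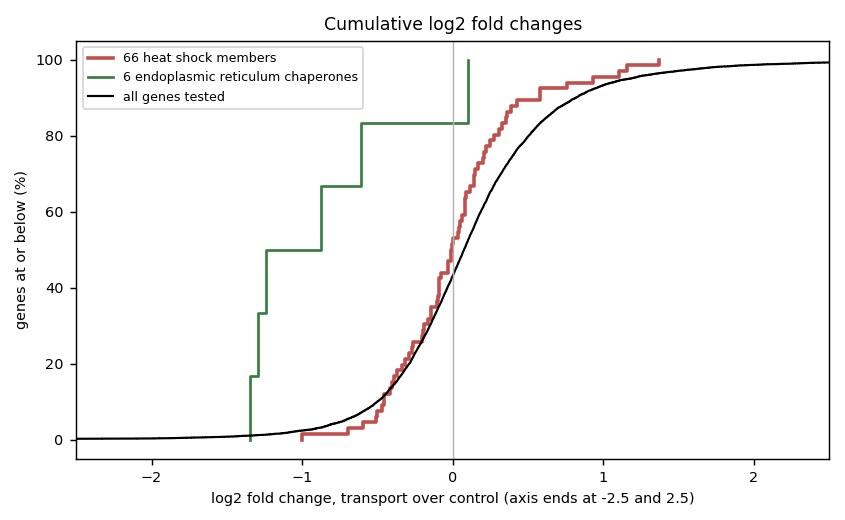
Share of genes (y axis, percent) at or below a log2 fold change of transport over control (x axis) for the 66 heat shock genes, the 6 endoplasmic reticulum chaperones left out by the rule, and all 12012 genes tested. The median of the heat shock curve is -0.0082, close to the 0.07 of all genes, while the endoplasmic reticulum curve lies to the left with a median of -1.06. Without transport 3, not drawn here, the median was -0.18 for the heat shock genes and 0.0046 for all genes.

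Partners of these chaperones outside the rule were followed with a list of 46 symbols, of which 42 were in the table and 40 were tested. The list holds HSP90 co-chaperones, prefoldin subunits, mitochondrial proteases and ubiquitin genes. None was called, none had an unadjusted p under 0.05, and 23 values were positive and 17 negative with a median log2 fold change of 0.02. The groups did not overlap in FPKM for 2, or 5% of those tested, against 11.1% of all genes: CLPP, a mitochondrial protease subunit, was higher and HSBP1, which binds heat shock factors, was lower in every transport library, both named after their values were seen. On log2 CPM with TMM scaling both overlapped. TOMM34, a co-chaperone of import into mitochondria, had the smallest p, at 1.59, 1.02 and 12.3 FPKM after transport and 1.07, 1.85 and 1.51 FPKM in controls, its high mean resting on transport 3. PDCL, a relative of the TRiC cofactors, had 2.33, 3.83 and 10.6 FPKM after transport and 2.65, 2.83 and 3.21 FPKM in controls. SQSTM1, the autophagy receptor p62, had 88.7, 182 and 71.5 FPKM after transport and 77.5, 63.8 and 67.0 FPKM in controls, with transport 2 far above the rest. The log2 fold changes of TOMM34, PDCL and SQSTM1 were 1.58, 0.83 and 0.69, and without transport 3 they were -0.23, 0.074 and 0.95.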

How the data were processed

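Trizol was used for total RNA and Illumina protocols for the libraries, per the labels' protocols. The deposited table gives a whole-number count per gene and library, per the file headers, and the FPKM that the authors computed, in which a count of 0 is written as 0.0001. No source used here names the aligner, the counting tool, the strand setting or the genome build; coordinates are those of the table. Columns of the transport group carry a prefix of their own and were matched by group and number; 0 columns with values per sample were left out.

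Genes whose FPKM was 1 or more in 3 or more libraries entered edgeR 4.0.16 in R 4.3.3 (quasi-likelihood test, TMM scaling, group as the only factor, Benjamini-Hochberg adjustment). Fold changes are transport over control. Standard errors and 95% intervals derive from the F statistic. Limma 3.58.1 on log2(FPKM + 1) and log2(FPKM + 0.1), DESeq2 1.42.0 and other settings were alternatives. The edgeR script was tested on simulated data. The common biological coefficient of variation over genes was 0.473.

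Members, role groups, partner and marker lists were chosen with earlier results of these data known. Values in every library are given for a set list of major chaperones, the 8 members of smallest p per direction, the most abundant and the most changed tested member of each role group, and the 3 genes of smallest p among the partners and among the endoplasmic reticulum chaperones; other genes named were chosen after their values were seen. To see whether replicate numbers pair the libraries, deviations from the group mean were correlated across genes: r was 0.217, 0.111 and 0.187 for same-numbered libraries and -0.261 to 0.101 for the other pairs. The labels do not give pairs, and values of this size from 3 libraries per group cannot establish them. The main fit therefore leaves the numbers out, and the fit with that block is an alternative.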

Additional observations from a re-analysis of the deposited data

How the results depend on the processing

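No member passed an adjusted p of 0.05 under any of the 14 alternatives run, of which 1, leaving out control 2 and transport 3 together, was chosen after seeing the data. Over all genes tested, edgeR called 2 higher and 0 lower, and the calls were 27 higher and 23 lower with DESeq2, 1 higher with limma at either pseudocount, with a mean FPKM of at least 5 or without control 2 and transport 3, and 0 to 2 higher and 0 to 1 lower with any library left out. Members at an unadjusted p under 0.05 and higher numbered 2 with no filter (CCT6B added), 2 with the replicate block (DNAJC18 added) and 2 without control 2 and transport 3 (DNAJC17 added). With any library left out they numbered 1 higher and 0 to 1 lower, DNAJB7 without transport 1 and STIP1 without transport 3. Members without overlap numbered 5 to 8 higher and 2 to 7 lower with any library left out, where 15.6% to 27.3% of all genes were without overlap, and 7 and 12 without control 2 and transport 3, where 27.5% of all genes were without overlap. The block changed no other call.

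The median log2 fold change of the members ran from -0.18 to 0.034 with any library left out and was -0.15 without control 2 and transport 3. That of all genes tested ran from 0.0046 to 0.11 with any library left out and was 0.0054 without control 2 and transport 3. Over the same omissions the medians ran from -0.088 to 0.27 for HSP40 class A, -0.032 to 0.11 for class B and -0.20 to 0.060 for TRiC. Without control 2 and transport 3, class B was at 0.19 and HSP70 at -0.29. With a mean FPKM of at least 5, BAG was at -0.20 and class B at 0.023.

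Of the 35 named genes 18 kept their sign throughout, and 17 changed it. With limma at pseudocounts 1 and 0.1 the log2 fold changes were -0.039 and -0.12 for HSPA1L, -0.023 and -0.031 for HSPH1, 0.053 and 0.054 for HSP90AB1, 0.18 and 0.20 for HSPB6, 0.20 and 0.57 for HSPB8, 0.024 and 0.024 for DNAJB1, and 0.036 and 0.45 for HSPB7. With the replicate block they were -0.21 for HSPA1L, -0.10 for HSPH1, 0.17 for HSPB6, 0.43 for HSPB8 and 0.28 for HSPB7. With a mean FPKM of at least 5 they were 0.034 for HSP90AB1 and 0.017 for DNAJB1. Without control 2 and transport 3 they were -0.36 for HSPA2, -0.54 for HSPH1, -0.41 for DNAJA1, 0.17 for DNAJB1, 0.049 for HSF1, -0.072 for HSF2, -0.49 for BAG2, 0.29 for BAG1, -0.25 for DNAJC7 and -0.16 for CCT3. With any library left out they ran from -0.53 to 0.41 for HSPA1L, -0.051 to 1.47 for HSPA2, -0.51 to 0.34 for HSPH1, -0.15 to 0.079 for HSP90AB1, -0.97 to 0.016 for HSPB1, -0.60 to 0.62 for HSPB6, -0.87 to 0.14 for HSPB8, -0.20 to 0.28 for DNAJA1, -0.30 to 0.11 for DNAJB1, -0.43 to 0.012 for TCP1, -0.084 to 1.60 for BAG2, -0.84 to 0.13 for BAG1, -0.33 to 0.28 for DNAJC7, -0.20 to 0.27 for CCT3 and -0.94 to 0.036 for HSPB7. The causes were not tested.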

Other observations

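The heat shock genes as a whole took a larger share of the reads in 1 library of each group. The 78 members held 0.589%, 0.555% and 0.743% of all counts in transports 1 to 3 and 0.591%, 0.613% and 0.764% in controls 1 to 3. Control 3 was the lowest library for 1 of the 66 tested members, or 1.52%, against 10.1% of all genes tested, and the highest for 14, or 21.2%, against 9.80%. Transport 3 was the highest for 26 members, or 39.4%, against 32.8% of all genes tested, and the lowest for 16, or 24.2%, against 29.4%. Control 2 was the lowest for 17 members, or 25.8%, against 19.0% of all genes tested, and the highest for 8, or 12.1%, against 13.6%.

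A few members made up most of the level. HSPE1, HSPB1 and HSPA8 together held 42.5% of the summed mean FPKM of the 78 members, and the 9 most abundant held 62.3%. DNAJC5B and HSPB9 had a count of 0 in all 6 libraries. DNAJC27, below the filter, had 0.781, 0.477 and 1.07 FPKM after transport and 0.463, 0.399 and 0.443 FPKM in controls, and so did not overlap between groups. By the FPKM reached in at least 3 libraries, the members nearest to the filter were HSPA4L at 1.62 and HSPA1L at 2.01 inside it, and DNAJC27 at 0.477 and DNAJA4 at 0.405 outside it.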
